A study of Mus musculus with 8 samples.

Results

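The genes described here are 9 chemokines (Cxcl1, Cxcl2, Cxcl5, Cxcl10, Cxcl16, Ccl2, Ccl7, Ccl20 and Cx3cl1) and Il33, a cytokine of the interleukin 1 family, 10 of the 19937 genes measured. Each was read by 1 probeset, and no probeset shared with another gene was used. Cxcl5, Ccl20 and Il33 were chosen because they were much lower after TGFbeta in these arrays, so their TGFbeta values are given as a description with no test, and the other 7 were taken as related chemokines. All cells were NMuMG, a mouse mammary gland epithelial line. The groups were cells with a stably transfected major satellite vector after 8 h of TGFbeta, the same cells untreated, cells with a stably transfected control vector after 8 h of TGFbeta, and the control vector cells untreated, with 2 arrays in each of the 4 groups. Major satellite is the tandem repeat of mouse pericentromeric heterochromatin. The labels do not say whether the transfected cells were 1 clone or a pool.

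Chemokines are small secreted proteins that direct the movement of leukocytes through G protein-coupled receptors. Epithelial cells make many of them, often after NF-kappaB is activated, and so announce injury or infection to neutrophils, monocytes, dendritic cells and T cells. The Il33 protein is held in the nucleus, is released from damaged epithelium and acts as an alarm signal. TGFbeta is a cytokine known to restrain inflammatory genes in many tissues and to drive epithelial-mesenchymal transition in NMuMG cells.

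Values are log2 expression per gene, and differences are log2 differences, so that a difference of -1 is a level halved. Each array title carried 1 of 2 codes that 1 array of every group shared, and arrays are called number 1 or number 2 by it. Array medians were 7.72 to 7.76 for number 1 and 7.88 to 7.92 for number 2. The limma fit was made without and with this number as a further term, and values from the second are called blocked. The threshold was an adjusted p of 0.05 over all genes. The labels do not say that the arrays of a group came from separate cultures, so p-values reflect the spread of the arrays alone, which may be technical, and the number of arrays limits the precision.

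The epithelial label was checked on 11 marker genes. Cdh1, Krt8, Krt18 and Krt19 lay at log2 12.65 to 14.42 on all arrays, whereas Epcam, Esrp1, Grhl2 and Cldn7 lay between 5.90 and 7.16, below the median of every array, and Krt7, Cldn3 and Cldn4 lay at 7.66 to 10.30. With TGFbeta, 2 of the 11 rose and 1 fell in each line in the blocked fit. For this and the marker counts below, 15.3% of all genes passed that fit in major satellite cells and 14.6% in control vector cells. Cldn4, a tight junction protein, rose by 2.25 in major satellite cells and 2.26 in control vector cells, with limma adjusted p of 0.00891 and 0.00834 without the block. Krt7 rose (0.77 and 0.86) and Krt19 fell (-0.72 and -0.76) in the blocked fit, with blocked adjusted p of 0.00863 and 0.00524 for Krt7 and 0.000620 and 0.000469 for Krt19. Of 10 leukocyte markers, none passed in either TGFbeta comparison in the blocked fit, and their summed log2 level was 68.4 to 71.5 in TGFbeta-treated major satellite cells, 68.1 to 70.3 in untreated major satellite cells, 68.5 to 71.5 in TGFbeta-treated control vector cells and 67.9 to 71.2 in untreated control vector cells. Fibroblast marker sums were 59.0 to 59.6 in TGFbeta-treated major satellite cells and 56.7 to 58.0 in untreated ones, and in control vector cells they were 58.4 to 59.8 with TGFbeta and 56.2 to 58.6 without. In the blocked fit 3 of the 8 fibroblast markers passed as higher with TGFbeta in major satellite cells (Pdgfra, Pdgfrb and Col1a1) and 2 in control vector cells (Pdgfra and Col1a1). Their part in the chemokine values was not tested. As a check of the treatment, the TGFbeta targets Has2 (3.29 in major satellite cells and 3.08 in control vector cells) and Itga5 (2.16 and 2.11) rose and the inhibitor of differentiation Id2 fell (-1.80 and -1.98), all with adjusted p of 0.0096 to 0.027 from limma without the replicate number. They were named for having the smallest p of 9 measured targets. Without the block 3 of the 9 rose and 1 fell in each line (1.09% and 1.07% of all genes passed). With it 7 rose and 1 fell (15.3% and 14.6%). Tgfbi did not pass (0.01 and -0.02, blocked adjusted p of 0.957 and 0.939).

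The first question was how these genes differed after 8 h of TGFbeta in each line. Cxcl5, Ccl20 and Il33 differed by -3.53 to -2.25 on the log2 scale over both lines. Of the 7 genes not chosen for that, 1 passed in each line, the membrane-anchored chemokine Cx3cl1, at about a 2-fold lower level, where 1.09% of all genes passed in major satellite cells (0.411% as lower) and 1.07% in control vector cells (0.366% as lower). In the blocked fit 4 of the 7 passed in major satellite cells, with Cxcl1 and Cx3cl1 lower and Ccl7 and Cxcl16 higher, and 3 of the 7 in control vector cells, the same genes without Ccl7. The share of all genes passing the blocked fit was 15.3% in major satellite cells, with 6.89% higher and 8.38% lower, and 14.6% in control vector cells, with 6.92% higher and 7.63% lower. The median difference of the 7 was 0.08 in major satellite cells and 0.00 in control vector cells, and over all genes it was 0.03 and 0.01.

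**Figure D1:**
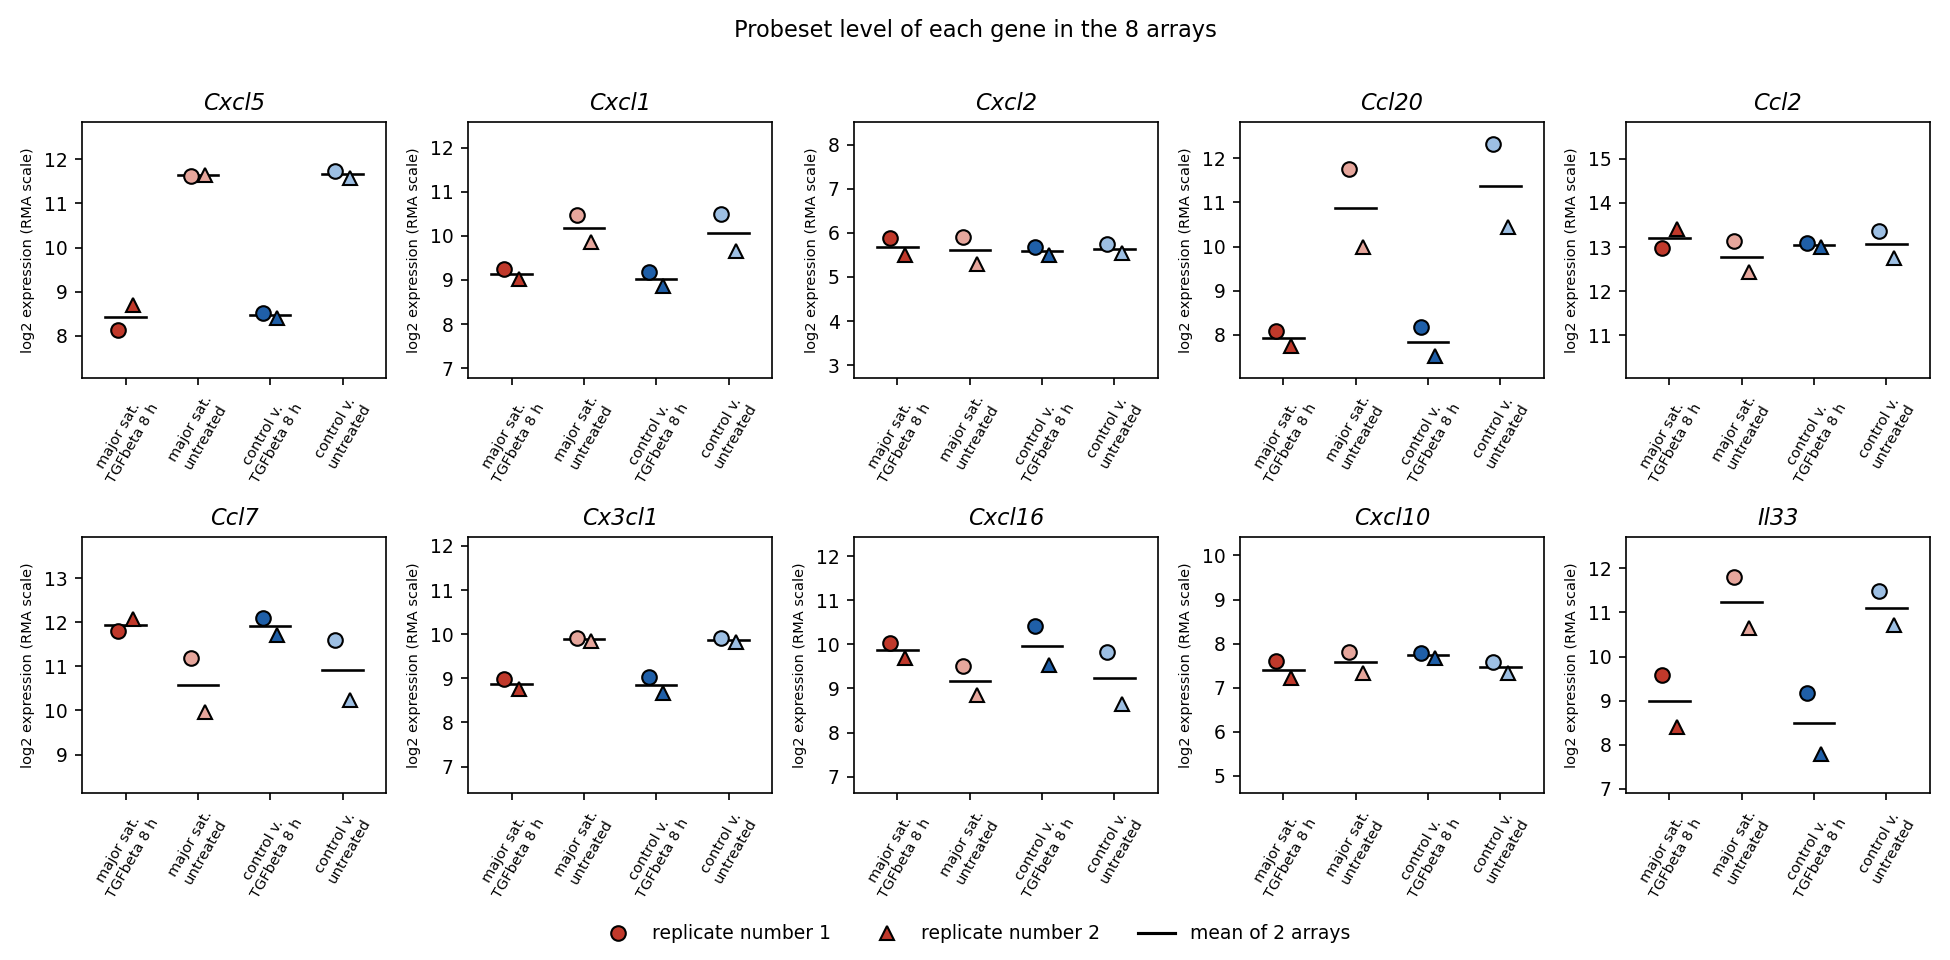
Log2 expression of the 10 genes on every array, 1 panel per gene, with the groups along the horizontal axis, TGFbeta-treated left of untreated within each line, circles for replicate number 1 and triangles for number 2. Bars mark the mean of the 2 arrays. The vertical span is the same in each panel, so that Cxcl5, at 8.14 to 8.70 with TGFbeta and 11.58 to 11.74 without, shows the gap of the chosen genes, and Ccl20 and Il33 also show the distance between replicate numbers.

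Cxcl5, a neutrophil attractant that acts on the receptor Cxcr2, had log2 values of 8.14 and 8.70 in TGFbeta-treated major satellite cells, against 11.62 and 11.65 in untreated ones. In control vector cells the values were 8.52 and 8.41 with TGFbeta and 11.74 and 11.58 without. Every TGFbeta array was below every untreated array, with a difference of -3.21 in major satellite cells (blocked SE 0.16), 9.27-fold lower, and -3.19 in control vector cells (blocked SE 0.16), 9.15-fold lower. In RNA from whole cultures, fewer cells expressing a gene and less RNA per cell cannot be told apart.

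Cxcl1, a related Cxcr2 ligand, is one of the early chemokines of inflamed epithelium. It had 9.24 and 9.02 in TGFbeta-treated major satellite cells, against 10.48 and 9.86 in untreated ones. It had 9.18 and 8.86 in TGFbeta-treated control vector cells, against 10.49 and 9.65 in untreated ones. The groups did not overlap in either line, but the untreated arrays of a line lay 0.62 to 0.84 apart. The difference was -1.04 ± 0.32 (SE) in major satellite cells and -1.05 ± 0.32 in control vector cells, with limma adjusted p of 0.290 and 0.285, which miss the threshold. With the block Cxcl1 fell in both lines, with SE 0.14 and adjusted p of 0.00122 in major satellite cells and 0.00114 in control vector cells. That call held when any 1 of the 8 arrays was left out, with blocked adjusted p between 0.000794 and 0.0151 over both lines.

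Cxcl2, the third Cxcr2 ligand among the 10 genes, had 5.87 and 5.49 in TGFbeta-treated major satellite cells and 5.91 and 5.30 in untreated ones. In control vector cells it had 5.67 and 5.50 with TGFbeta and 5.74 and 5.53 without. All 8 values lay below the median of their array, and the groups overlapped in both lines. The differences of 0.08 in major satellite cells (blocked adjusted p = 0.711) and -0.05 in control vector cells (0.867) did not pass, with blocked 95% confidence intervals of -0.18 to 0.34 and -0.31 to 0.21.

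Ccl20, the ligand of Ccr6 that draws dendritic cells and Th17 cells to epithelium, had 8.09 and 7.75 in TGFbeta-treated major satellite cells, against 11.76 and 9.998 in untreated ones. In control vector cells it had 8.17 and 7.52 with TGFbeta, against 12.31 and 10.43 without. The TGFbeta arrays were all below the untreated ones, and array number 1 was above number 2 in every group. The difference was -2.95 in major satellite cells (blocked SE 0.33), 7.75-fold lower, and -3.53 in control vector cells (blocked SE 0.33), 11.6-fold lower. The size varied with the replicate number. Within number 1 it was -3.66 in major satellite cells and -4.15 in control vector cells, and within number 2 it was -2.24 and -2.92. Number 1 exceeded number 2 by 0.34 with TGFbeta and 1.76 without in major satellite cells, and by 0.65 with TGFbeta and 1.88 without in control vector cells.

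Il33 had 9.57 and 8.40 in TGFbeta-treated major satellite cells, against 11.81 and 10.65 in untreated ones. In control vector cells it had 9.18 and 7.80 with TGFbeta, against 11.49 and 10.72 without. Array number 1 was again the higher one in every group, by 0.77 to 1.38, and the TGFbeta and untreated arrays did not overlap. The difference was -2.25 in major satellite cells (blocked SE 0.13), 4.74-fold lower, and -2.61 in control vector cells (blocked SE 0.13), 6.12-fold lower. Its values within number 1 and number 2 were -2.24 and -2.26 in major satellite cells, and -2.31 and -2.92 in control vector cells.

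Ccl2 and Ccl7 are neighbouring chemokine genes whose products attract monocytes through Ccr2. Ccl2 had 12.98 and 13.42 in TGFbeta-treated major satellite cells, against 13.13 and 12.44 in untreated ones, and 13.10 and 13.01 in TGFbeta-treated control vector cells, against 13.37 and 12.75 in untreated ones. Its groups overlapped in both lines. The difference of 0.42 in major satellite cells (blocked adjusted p = 0.270) was -0.15 within number 1 and 0.98 within number 2, and that of 0.00 in control vector cells (blocked adjusted p = 0.998) was -0.26 and 0.26. The value in major satellite cells rested on single arrays. In the blocked fit it was 0.87 without TGFbeta number 1, which passed (adjusted p = 0.0198), and -0.04 without TGFbeta number 2 (0.939), and it was 0.71 without untreated number 1 (0.148) and 0.12 without untreated number 2 (0.857).

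Ccl7 had 11.81 and 12.07 in TGFbeta-treated major satellite cells, against 11.19 and 9.96 in untreated ones. It had 12.09 and 11.72 in TGFbeta-treated control vector cells, against 11.60 and 10.24 in untreated ones. All TGFbeta arrays of a line were above its untreated arrays, and the untreated arrays of number 2 were the lowest. The difference was 1.37 ± 0.53 (SE) in major satellite cells and 0.99 ± 0.53 in control vector cells, with limma adjusted p of 0.452 and 0.768. In the blocked fit Ccl7 rose in major satellite cells, with SE 0.32 and adjusted p = 0.0198, while in control vector cells it missed the threshold, with adjusted p = 0.0772. The call in major satellite cells was lost without array number 2 of the untreated group (difference 1.0, blocked adjusted p = 0.188) or of the TGFbeta group (0.74 and 0.169). In control vector cells the difference was 0.53 without untreated number 2 (blocked adjusted p = 0.558), and Ccl7 passed in 3 of the 8 fits that left out 1 array, with 1.44 and 0.0404 without untreated number 1, and with 0.99 and 0.0191 without either TGFbeta array of the major satellite cells. The difference between the lines' responses, 0.38, was tested itself and did not pass (blocked adjusted p = 0.999).

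Cx3cl1 and Cxcl16 are the chemokines made as membrane-anchored proteins, from which ADAM proteases release a soluble form. Cx3cl1, the ligand of Cx3cr1, had 8.99 and 8.76 in TGFbeta-treated major satellite cells, against 9.91 and 9.85 in untreated ones. It had 9.03 and 8.67 in TGFbeta-treated control vector cells, against 9.92 and 9.82 in untreated ones. The untreated arrays lay within 0.10 of each other in each line, and the TGFbeta arrays were all lower. The fall was -1.0 ± 0.16 (SE) in major satellite cells, 2.01-fold lower, and -1.02 ± 0.16 in control vector cells, 2.02-fold lower, with limma adjusted p of 0.0489 and 0.0461. In the blocked fit the adjusted p was 0.000234 in major satellite cells and 0.000204 in control vector cells. Without the block the call rested on the setting, since it held in 2 of 12 alternatives over both lines (adjusted p of 0.0444 to 0.219) and in 0 of 16 fits that left out 1 array (0.0677 to 0.301), whereas with the block it held in 8 of 8 alternatives.

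Cxcl16, the ligand of Cxcr6, went the other way in the blocked fit. It had 10.04 and 9.68 in TGFbeta-treated major satellite cells, against 9.50 and 8.84 in untreated ones. It had 10.40 and 9.53 in TGFbeta-treated control vector cells, against 9.82 and 8.65 in untreated ones. Groups did not overlap in major satellite cells and overlapped in control vector cells, where the arrays of a group lay 0.87 and 1.17 apart. The difference was 0.69 ± 0.46 (SE) in major satellite cells and 0.73 ± 0.46 in control vector cells, with limma adjusted p of 0.841 and 0.890. With the block Cxcl16 rose in both lines, with SE 0.16 and adjusted p of 0.0197 in major satellite cells and 0.0147 in control vector cells. Each of these calls held in 5 of the 8 fits that left out 1 array, but most of those fits left out an array of the other line. Such fits cannot change the difference, which stayed at 0.69 in major satellite cells and 0.73 in control vector cells. Among fits that left out an array of the line itself, the call held only without TGFbeta number 1 in major satellite cells. In control vector cells it held only without untreated number 1. In major satellite cells the call was lost without untreated number 1 (difference 0.62, blocked adjusted p = 0.132), untreated number 2 (0.75 and 0.0835) or TGFbeta number 2 (0.41 and 0.177). In control vector cells it was lost without untreated number 2 (0.47 and 0.166), TGFbeta number 1 (0.66 and 0.108) or TGFbeta number 2 (0.81 and 0.0747). The difference was thus over 1.5 times smaller without TGFbeta number 2 in major satellite cells and without untreated number 2 in control vector cells, and within 0.08 of the full value in the other 4 fits that lost the call.

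Cxcl10, an interferon-induced ligand of Cxcr3, had 7.61 and 7.22 in TGFbeta-treated major satellite cells, against 7.81 and 7.34 in untreated ones. It had 7.80 and 7.68 in TGFbeta-treated control vector cells, against 7.59 and 7.33 in untreated ones. Groups overlapped in major satellite cells and did not overlap in control vector cells. The difference of -0.16 in major satellite cells (blocked adjusted p = 0.330) and that of 0.28 in control vector cells (blocked adjusted p = 0.112) did not pass. Counted over the 7 genes not chosen for their fall, groups did not overlap for 4 in major satellite cells (Cxcl1, Cxcl16, Ccl7 and Cx3cl1), where 34% of all genes did not overlap, and for 4 in control vector cells (Cxcl1, Cxcl10, Ccl7 and Cx3cl1), where 29.3% did not.

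**Figure D2:**
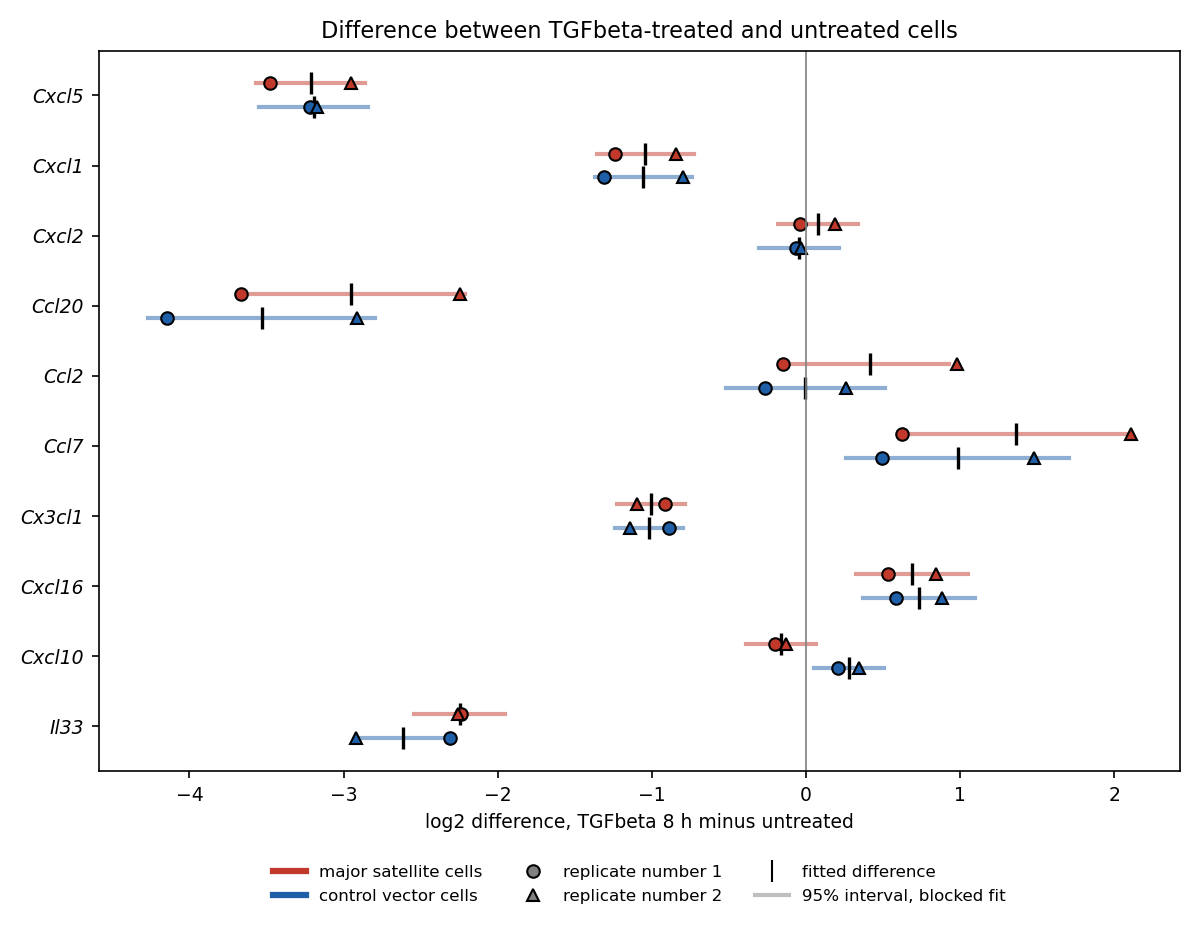
Log2 difference with TGFbeta minus untreated for each of the 10 genes, major satellite cells above control vector cells, with the difference within replicate number 1 as circles and number 2 as triangles, the fitted difference as a vertical tick and its blocked 95% confidence interval as a bar. Cxcl5, Ccl20 and Il33 lie at -3.53 to -2.25, Cxcl1 and Cx3cl1 near -1, and Cxcl16 and Ccl7 at 0.69 to 1.37, with intervals of Ccl2 and Cxcl2 that cross 0 in both lines. Cxcl5, Ccl20 and Il33 were chosen for this fall, so their bars describe the spread of the arrays and are no test.

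The other chemokine ligands were measured beside these 9. Of 27 further ligands, 0 passed without the block and 3 in the blocked fit in each line (11.1%, against 15.3% of all genes in major satellite cells and 14.6% in control vector cells), the same 3 in both, and their median difference was 0.02 in each line. Cxcl12, the ligand of Cxcr4, rose, by 0.89 in major satellite cells and 0.76 in control vector cells, with blocked adjusted p of 0.000254 and 0.000515. Ppbp, a platelet-derived Cxcr2 ligand, fell (-0.86 and -0.79, blocked adjusted p of 0.00433 and 0.00642), as did the CC ligand Ccl9 (-0.82 and -0.77, 0.00227 and 0.00302). Ppbp had 8.54 and 6.84 in TGFbeta-treated major satellite cells, against 9.69 and 7.41 in untreated ones, so its replicate numbers lay further apart than its treatments. Cxcl3, another Cxcr2 ligand, lay between 6.38 and 6.75 on all arrays and did not pass.

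**Figure D3:**
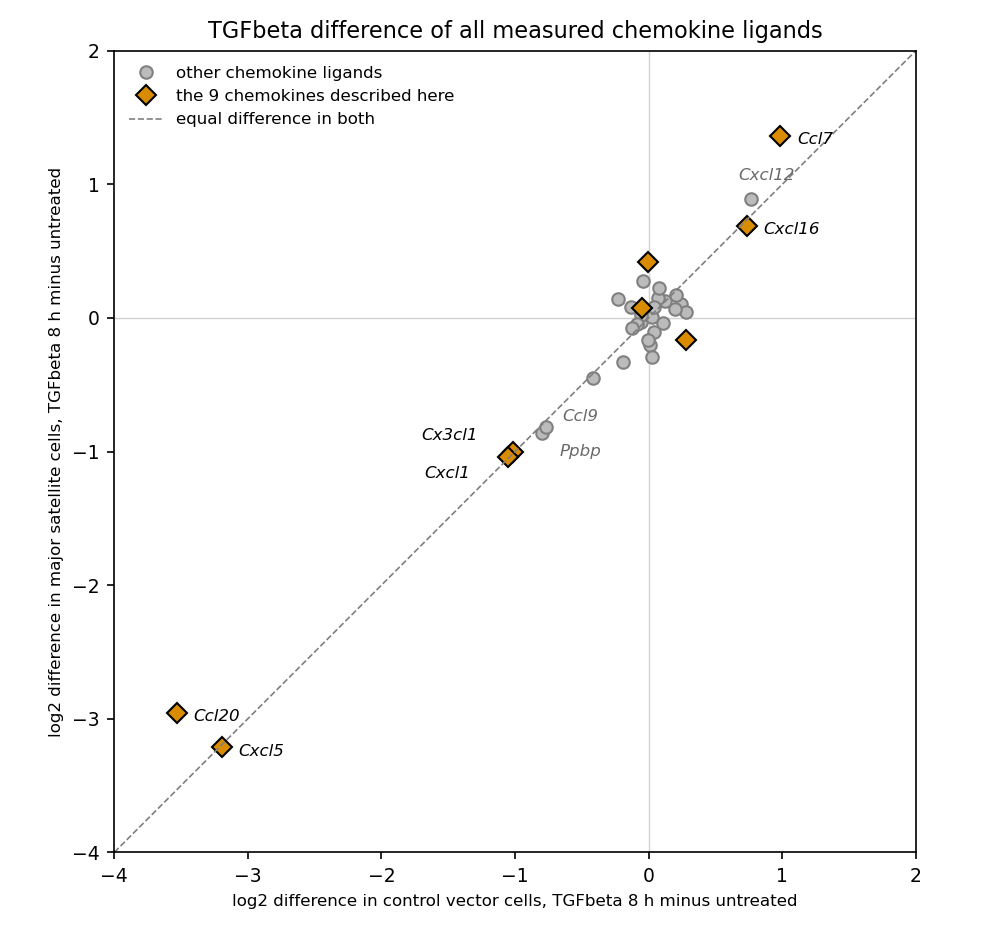
Log2 difference with TGFbeta minus untreated in major satellite cells (vertical) against control vector cells (horizontal) for all 36 measured chemokine ligands, with the 9 described here as orange diamonds and a dashed line of equal difference. Cxcl5 and Ccl20 lie apart at the lower left, Cx3cl1, Cxcl1, Ccl9 and Ppbp between -0.77 and -1.05, and Ccl7, Cxcl12 and Cxcl16 at the upper right.

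Of 22 chemokine receptors, 0 passed without the block and 1 in the blocked fit. That fit passed 15.3% of all genes in major satellite cells and 14.6% in control vector cells. The 1 receptor was the scavenging receptor Ackr3, which binds Cxcl12. It rose by 1.20 in major satellite cells and 0.99 in control vector cells (blocked adjusted p of 0.000486 and 0.00125). Receptors of these chemokines did not pass, with Cxcr3 at 7.56 to 7.93, Ccr6 at 6.36 to 6.99, Cxcr2 at 5.16 to 5.51, Ccr2 at 4.90 to 5.24, Cxcr6 at 6.23 to 6.74 and Cx3cr1 at 7.70 to 8.30 on all arrays. Il1rl1, the receptor of Il33, is not analysed here. Among 7 other interleukin 1 family members and epithelial alarmins, 1 passed in the blocked fit in each line (15.3% and 14.6% of all genes passed). That gene, Il18, which like Il33 is made by epithelium, fell by 0.50 in major satellite cells and by 0.69 in control vector cells, with blocked adjusted p of 0.0440 and 0.0105. Without the block its limma adjusted p was 0.942 in both lines, and its TGFbeta and untreated arrays overlapped in both. Il1a, Il1b and Tslp did not pass and lay between 4.83 and 6.72. Of 6 interleukin 1 family receptors, 1 passed, in the blocked fit alone (15.3% and 14.6% of all genes passed). It was Il18rap, the accessory chain of the interleukin 18 receptor, with differences of 1.0 in major satellite cells and 0.91 in control vector cells (blocked adjusted p of 0.00539 and 0.00905, against 0.162 and 0.210 without the block).

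Among genes that act on chemokine transcription, 21 NF-kappaB subunits and inhibitors had a median difference of 0.07 in major satellite cells and 0.15 in control vector cells, and 0 passed without the block. With the block 2 rose and 4 fell in major satellite cells, where 15.3% of all genes passed, and 2 rose and 3 fell in control vector cells, where 14.6% did. The nuclear cofactor Bcl3 fell (-0.63 and -0.50, blocked adjusted p of 0.00317 and 0.0103), as did the kinase gene Ikbke (-0.37 and -0.48, 0.0224 and 0.00659). Tnip3 had the largest differences of the list and fell in both lines (-1.06 and -1.11, 0.0333 and 0.0290). Traf1 rose (0.39 and 0.44, 0.0274 and 0.0165). Tnip1 rose in control vector cells (0.38, 0.0159) and did not pass in major satellite cells (0.27, 0.0660). Rela, a subunit of the activating dimer, and Nfkbia, its feedback inhibitor, did not pass, with differences of -0.02 and 0.03 in major satellite cells and 0.14 and -0.23 in control vector cells. Of 15 interferon response genes, the list nearest to Cxcl10, 2 rose and 3 fell in major satellite cells (15.3% of all genes passed) and 2 rose and 2 fell in control vector cells (14.6%) in the blocked fit. Oasl2 rose by 1.45 and 1.62 (limma adjusted p of 0.0200 and 0.0140), while Ifit3 differed by -1.07 in major satellite cells (0.0866 without the block and 0.00314 with it) and fell by 1.45 in control vector cells (0.0350).

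Of 10 genes for chemokine shedding and for heparan sulfate, the glycan on which chemokines dock, the proteoglycan Sdc3 rose by 2.40 in major satellite cells and 2.52 in control vector cells (limma adjusted p of 0.0300 and 0.0224). In the blocked fit 3 rose and 1 fell in major satellite cells (15.3% of all genes passed) and 4 rose and 1 fell in control vector cells (14.6%). Adam17, a protease that releases Cx3cl1 from the membrane, differed by -0.26 in major satellite cells (blocked adjusted p = 0.0697) and fell by 0.38 in control vector cells (0.0146). Adam10, another ADAM protease of the list, went the other way. It rose by 0.29 in control vector cells (blocked adjusted p = 0.0489) and differed by 0.22 in major satellite cells (0.108). In major satellite cells the gene that fell was Adamts1 (-0.47, blocked adjusted p = 0.0308). In control vector cells its difference was -0.31 (0.149). Ext1, an enzyme that builds heparan sulfate chains, rose in the blocked fit by 0.57 and 0.87 (0.00656 and 0.000730).

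Promoter windows were read for the genes whose promoter RefSeq's table held, 6 of the 10, to show the sequence just before the start of genes with different TGFbeta values. Each window is the 250 bases before the annotated start in GRCm38.p6, on the gene's strand. A consensus NF-kappaB motif was searched on both strands, and 4 of the 6 genes held it (Ccl20, Cxcl1, Cxcl2 and Cxcl10), where 7.25% of all 32851 windows did. Il33, with a pair of annotated starts, and Cx3cl1 had no match in their windows. The 4 windows with a match are shown because they belong to genes that were much lower (Ccl20), fell in the blocked fit (Cxcl1) or did not pass (Cxcl2 and Cxcl10). Capitals mark the letters of the match, with overlapping matches run together. The Ccl20 window is chr1:83116516-83116765 on the plus strand, that of Cxcl1 chr5:90890995-90891244 on the plus strand, that of Cxcl2 chr5:90903649-90903898 on the plus strand and that of Cxcl10 chr5:92348890-92349139 on the minus strand.
Ccl20: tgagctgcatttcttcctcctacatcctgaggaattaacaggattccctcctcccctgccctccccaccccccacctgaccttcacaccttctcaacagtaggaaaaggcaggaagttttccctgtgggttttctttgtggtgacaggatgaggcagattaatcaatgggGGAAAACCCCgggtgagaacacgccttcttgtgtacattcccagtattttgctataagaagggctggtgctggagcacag
Cxcl1: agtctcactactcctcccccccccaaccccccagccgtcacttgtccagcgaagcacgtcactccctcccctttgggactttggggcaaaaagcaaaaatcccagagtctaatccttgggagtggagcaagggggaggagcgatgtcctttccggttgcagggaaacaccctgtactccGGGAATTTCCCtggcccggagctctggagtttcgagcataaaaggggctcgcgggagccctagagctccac
Cxcl2: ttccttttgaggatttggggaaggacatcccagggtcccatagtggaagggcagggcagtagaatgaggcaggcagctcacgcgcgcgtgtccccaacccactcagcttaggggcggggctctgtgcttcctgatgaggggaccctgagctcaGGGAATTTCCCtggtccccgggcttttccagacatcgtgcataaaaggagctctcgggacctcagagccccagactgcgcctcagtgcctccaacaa
Cxcl10: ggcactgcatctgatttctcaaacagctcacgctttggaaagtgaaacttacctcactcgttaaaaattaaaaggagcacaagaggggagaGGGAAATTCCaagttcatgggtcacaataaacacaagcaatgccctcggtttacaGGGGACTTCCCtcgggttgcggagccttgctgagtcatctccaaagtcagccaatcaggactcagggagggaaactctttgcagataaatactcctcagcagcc

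The capitals spell the same letters in Cxcl1 and Cxcl2, beginning 71 bases before the start of Cxcl1 and 97 before that of Cxcl2. Cxcl1 fell in the blocked fit and Cxcl2 did not pass. Cxcl2 lay between percentiles 6.95 and 12.8 of the genes on each array, so low that a fall may not be seen. Whether the motif bears on either value was not tested. In Ccl20 the match begins 80 bases before the start and reads on the other strand. Cxcl10 held matches 159 and 104 bases before its start. Of other motifs searched on both strands, the AP-1 motif TGANTCA was in the window of Cxcl10 (6.75% of all windows), the Smad motif CAGAC in Cxcl2 and Il33 (42.2%), and the E-box CACCTG in Ccl20 (17.2%). A match describes these letters and is no evidence of binding.

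The second question was whether the major satellite vector moved these genes. None of the 10 passed in major satellite against control vector cells after TGFbeta, where 0.00502% of all genes passed without the block and 0.0301% with it, and none in untreated cells, where the shares were also 0.00502% and 0.0301%. At an unadjusted p under 0.05, 85 of all genes (0.426%) passed after TGFbeta without the block and 1298 (6.51%) with it. In untreated cells 86 (0.431%) and 654 (3.28%) did. Without the block these shares lay far below what a threshold of 0.05 gives when no gene differs, so that fit may miss differences. After TGFbeta the differences ran from -0.32 (Cxcl10) to 0.49 (Il33), with blocked adjusted p of 0.752 to 0.987, and in untreated cells from -0.50 (Ccl20) to 0.13 (Il33). Groups did not overlap for 1 of the 10 genes after TGFbeta (Cxcl10), where 16.9% of all genes did not overlap, and for 0 in untreated cells, where 13.2% did not.

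Il33 was 0.49 ± 0.13 (blocked SE) higher in major satellite cells than in control vector cells after TGFbeta, with 0.39 within number 1 and 0.60 within number 2, an unadjusted blocked p of 0.00431 and an adjusted p of 0.752. Its blocked 95% interval was 0.20 to 0.79, and the arrays of the groups overlapped. In untreated cells the Il33 difference was 0.13, with 0.32 within number 1 and -0.07 within number 2. Cxcl10 was at -0.32 after TGFbeta (-0.19 within number 1 and -0.46 within number 2) and at 0.11 in untreated cells. Its blocked p from limma after TGFbeta was 0.0101 unadjusted and 0.752 adjusted. Ccl20 differed by -0.50 in untreated cells, with a blocked interval of -1.23 to 0.24, and Cxcl5 by -0.04 after TGFbeta and -0.02 untreated.

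**Figure D4:**
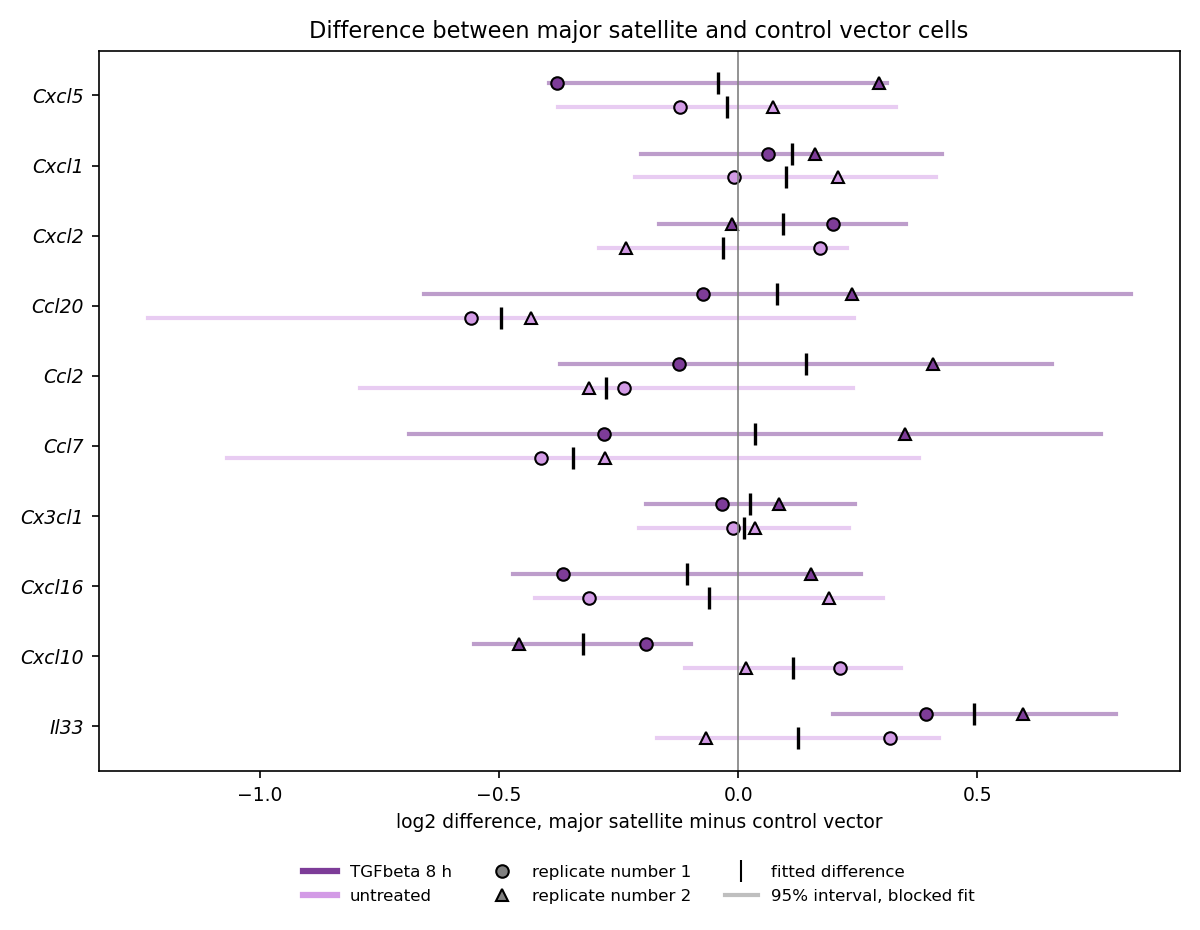
Log2 difference of major satellite minus control vector cells for the 10 genes after 8 h of TGFbeta and untreated, with circles, triangles, ticks and bars for replicate number 1, number 2, the fitted difference and its blocked 95% confidence interval. Fitted differences lie between -0.50 and 0.49, and none passed.

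The difference between the lines' TGFbeta responses was tested as well, and 0 of the 10 genes passed, as did 0% of all genes in either fit. At an unadjusted p under 0.05, 44 of all genes (0.221%) passed without the block and 658 (3.3%) with it. The 10 differences of response ran from -0.44 (Cxcl10) to 0.58 (Ccl20), with a blocked adjusted p of 0.999 for each. Among the chosen genes, the blocked 95% interval of this difference was -0.05 to 0.79 in Il33 and -0.47 to 1.62 in Ccl20. In Cxcl5 it was -0.52 to 0.48. Each interval holds 0 and also differences up to its ends. With 2 arrays a group, neither no difference nor one of that size can be set aside.

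Finally, the genes whose pattern was most like that of the 3 chosen ones were found by Pearson correlation over the 8 arrays after the mean of each replicate number had been taken off, among 2350 named genes with a range of at least 1. The arrays share their treatment groups, so these correlations are a description. For Cxcl5 they were Far1 (r = 0.998), Cav2 (0.997) and Itga3 (0.997), for Ccl20 Tigit (0.992), Tmem171 (0.991) and Vstm5 (0.990), and for Il33 Atp6v0e2, Grtp1 and Tipin (0.997 each). All 9 were lower with TGFbeta in both lines, by less than the chosen gene they resembled, which follows largely from how both were picked. Far1 differed by -0.79 in major satellite cells and -0.77 in control vector cells, Tigit by -1.48 and -1.97, and Grtp1 by -0.94 and -1.05.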

How the data were processed

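The authors deposited 1 log2 value per probeset and array, in the range that robust multi-array averaging (RMA) gives. The submitters' processing notes name RMA and limma, whose versions and roles are not given in the sources used here. Gene names came from the platform annotation, with symbols updated through Entrez identifiers and RefSeq. Of 34760 probesets, 21640 had 1 symbol and 1321 several, and genes with more than 1 probeset kept the one with the highest mean, which left 19937 genes.

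The tests used limma 3.58.1 (R 4.3.3) on all 8 arrays (lmFit, contrasts.fit, eBayes, two-sided, 4 residual degrees of freedom), with Benjamini-Hochberg adjustment over all genes and a threshold of 0.05. The blocked fit added the replicate number (3 residual degrees of freedom). The numbers were taken to pair the arrays because deviations from group means correlated, across genes, at 0.758 to 0.874 between arrays of the same number. Alternatives changed the scaling, the probesets, a filter on low values, eBayes and the arrays used. The members and lists were chosen with earlier results of these data known. From each list, up to 3 passing genes with the smallest p were named, and genes named beyond that (such as Rela, Nfkbia, Cxcl3 and the receptors) were chosen after their values were seen. Markers and genes for the check of treatment came from further lists.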

Additional observations from a re-analysis of the deposited data

Results flagged for a closer look

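Cxcl10 was singled out because its TGFbeta difference had opposite signs in the lines in both replicate numbers, at -0.16 in major satellite cells and 0.28 in control vector cells. The difference between these responses was -0.44 on the log2 scale (blocked SE 0.14), with -0.41 within number 1 and -0.47 within number 2. Tested as an interaction in limma, it had an unadjusted blocked p of 0.0127 and an adjusted p of 0.999, and so did not pass over all genes. The gene was picked for this same difference, and the unadjusted p makes no allowance for that choice.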

How the results depend on the processing

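The number of the 7 genes not chosen for their fall that passed with TGFbeta was 1 in major satellite cells and 1 in control vector cells. It was 4 and 3 with the replicate block, whether on the deposited values, with quantile normalization, with arrays centred on their median or with a filter on low values. Without the block it was 0 and 0 with arrays centred on their median, with quantile normalization, over all probesets, with trended and robust eBayes, and with only the 2 groups compared, and 1 and 1 with the filter alone. Leaving out 1 array gave 0 in both lines without the block, and with it 2 to 5 in major satellite cells and 2 to 4 in control vector cells. The vector comparisons and the difference between responses had 0 of the 10 genes passing in every setting run. Over all genes, 218 passed in major satellite cells and 214 in control vector cells without the block, 3044 and 2901 with it, 66 and 87 with arrays centred, 84 and 108 with quantile normalization, 124 and 155 with trended and robust eBayes, and 0 and 0 over all probesets or with only the 2 groups. Leaving out 1 array, 0 to 82 passed in major satellite cells and 0 to 89 in control vector cells without the block, and 1228 to 3020 and 1202 to 3161 with it; the cause was not tested. Of 1528 values compared between settings, 168 changed sign, none of them where a call was made. In many settings a difference cannot move. These include the block on all arrays, the filter, trended and robust eBayes and leaving out an array outside the comparison. With TGFbeta, 6 signs changed in major satellite cells and 10 in control vector cells. The rest lay in vector and response comparisons, where no gene of the 10 passed in any setting. The count is therefore no measure of how stable the calls are. The combined settings of block and scaling were added after seeing the data. No gene of the 10 had several probesets, so that alternative had nothing to run. With 2 arrays a group, a difference has few degrees of freedom, and signal over background is not known from these values.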
